A study of Mus musculus with 3 samples.

Results

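The genes described are the 136 mouse zinc finger genes with a numbered Zfp symbol, Zfp42 left out, whose estimated read count was a whole number in all 3 libraries and at least 20 in the NT library. They were selected on those measured counts from 343 listed genes of that symbol pattern and 17209 listed genes in all. A whole count was taken to mark a gene to which no read was shared out with a related copy, and 176 genes of the pattern had a fractional count in at least 1 library. The other 31 had whole counts and fewer than 20 reads in NT. Just inside that limit lay Zfp3 and Zfp846, with 20 reads each in NT, and Zfp169, Zfp563, Zfp69 and Zfp82, with 21 each. Just outside lay Zfp30 and Zfp420, with 19 each, and Zfp810, with 18. Since the NT count chose the members, their differences from NT are a description.

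RNA was sequenced from epiblast stem cells (EpiSCs) of mouse strain 129 at passage 1, pluripotent cells that resemble the epiblast after implantation. All 3 groups came from cells maintained on gelatin in serum with IWR1 and Y27. The IWR1 group was given 2 µM IWR1, a tankyrase inhibitor that dampens Wnt signalling, over 12 h. The Y27 group was given Y27, a compound named so in the labels, over 12 h at a labelled 0.5 µM. In the NT group both compounds were taken away overnight. Each group was 1 library, so differences between groups are those of these libraries, and no p-value is given. Library sums of the estimated counts were 5607725 in IWR1, 5459332 in Y27 and 5767550 in NT. A level is given in reads, or in reads scaled to library size with TMM factors (CPM), where 1 read is worth 0.179, 0.179 and 0.177 CPM in IWR1, Y27 and NT. A log2 difference is that of CPM + 1, which understates differences of low genes. Each fold is followed by an exact 95% interval in brackets, for counting error alone.

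Most Zfp genes encode C2H2 zinc finger proteins, in which a pair of cysteines and a pair of histidines hold a zinc ion and each finger contacts a few bases of DNA. Finger genes multiply by tandem duplication and often stand in clusters. Many vertebrate members also carry a KRAB domain, which recruits the corepressor Trim28 and with it the histone methyltransferase Setdb1, and the best known targets of such proteins are endogenous retroviruses and imprinted regions. Other members have no KRAB domain and act in transcription, RNA metabolism or protein quality control.

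The coding sequence of the first classical finger is shown for 5 members, because fingers with the same cysteines and histidines were written with very different base compositions. They are the 2 members highest and the 3 lowest in Y27 over NT among members with at least 5 finger motifs, a single-exon first finger and a place on a chromosome other than 18. Each stretch holds 84 bases of GENCODE coding sequence on GRCm38, 5′ to 3′, and the capitals mark the codons of the 2 cysteines and 2 histidines.
Zfp160 finger, chr17:21025631-21025714 (+): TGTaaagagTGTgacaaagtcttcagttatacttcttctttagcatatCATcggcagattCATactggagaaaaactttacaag
Zfp445 finger, chr9:122853378-122853461 (-): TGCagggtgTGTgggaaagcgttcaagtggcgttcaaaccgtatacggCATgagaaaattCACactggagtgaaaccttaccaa
Zfp418 finger, chr7:7181811-7181894 (+): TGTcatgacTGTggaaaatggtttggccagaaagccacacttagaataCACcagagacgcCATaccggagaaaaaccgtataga
Zfp296 finger, chr7:19579861-19579944 (+): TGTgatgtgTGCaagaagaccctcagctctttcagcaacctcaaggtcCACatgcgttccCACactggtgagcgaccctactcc
Zfp628 finger, chr7:4918886-4918969 (+): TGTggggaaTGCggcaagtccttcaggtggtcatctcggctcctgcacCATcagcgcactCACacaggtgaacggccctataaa
Zfp160 had 34.5% GC in this stretch and Zfp445 47.6%, while Zfp418 had 45.2%, Zfp296 54.8% and Zfp628 57.1%. Over the 101 members with such a first finger, its GC content ran from 31.0% to 72.6%, with a median of 48.8%. The Spearman correlation of that GC content with the log2 difference of Y27 over NT was -0.66 across these members, which share their libraries.

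The members together held 30640 reads in IWR1, 31417 in Y27 and 27535 in NT, which is 0.546%, 0.575% and 0.477% of each library. Per transcript length, mean levels over the 3 libraries ran from 0.723 FPKM for Zfp563 to 104 FPKM for Zfp207, with a median of 7.18 FPKM. Zfp207, a spindle assembly protein that binds microtubules, had the highest level, with 111 FPKM in IWR1, 106 FPKM in Y27 and 95.3 FPKM in NT. Zfp106, an RNA-binding protein needed by motor neurons in mice, followed with 65.1, 62.9 and 51.7 FPKM in IWR1, Y27 and NT. In these bulk libraries, fewer cells expressing a gene and less of its RNA per cell cannot be told apart.

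In each treated library more members lay above NT than below it, with the higher median in Y27. In IWR1 over NT, 83 of 136 members lay above 0, with a median log2 difference of 0.09 and a range of -1.57 to 1.23. In Y27 over NT, 91 lay above 0, with a median of 0.15 and a range of -1.14 to 1.67. In IWR1 over Y27, 56 lay above 0, with a median of -0.06. The medians of the 12955 genes compared, those with a mean of at least 1 CPM, were -0.00, -0.02 and 0.00 in these 3 comparisons, and 49.7%, 48.1% and 50.1% of them lay above 0. The 8847 genes that met the same count rule had medians of -0.04, -0.09 and 0.02, with 44.8%, 41.3% and 52.9% above 0. The comparisons with NT share the NT library, so a low or high NT value moves both.

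At 2-fold, 6 members were higher and 1 lower in IWR1 over NT, where 2.28% of the genes compared were higher and 2.25% lower, and 1.12% and 2.19% of the genes under the same count rule. In Y27 over NT, 19 members (14.0%) were higher and 1 lower, against 5.58% higher and 1.34% lower among the genes compared and 3.73% and 1.24% under the same count rule. In IWR1 over Y27 no member was higher and 3 were lower, against 1.38% and 2.9% of the genes compared and 0.927% and 2.1% under the same count rule. At 1.5-fold, 24 members were higher and 2 lower in IWR1 over NT (10.8% and 6.37% of the genes compared), 40 and 3 in Y27 over NT (14.9% and 5.53%), and 3 and 10 in IWR1 over Y27 (5.06% and 8.2%). The count rule used the NT level, so nothing is read from the comparisons with NT beyond these shares.

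Zfp638, Zfp445, Zfp386, Zfp2 and Zfp383 were at least 2-fold above NT in IWR1 and in Y27. Zfp638 (known in human as NP220), a DNA-binding protein that recruits the HUSH silencing complex to unintegrated retroviral DNA in human cells, had 496 reads in IWR1, 653 in Y27 and 210 in NT. It was 2.38-fold higher in IWR1 than in NT (2.03 to 2.82) and 3.15-fold higher in Y27 than in NT (2.69 to 3.70). Zfp445, which helps to maintain DNA methylation at imprinted regions, had 602 reads in IWR1, 781 in Y27 and 277 in NT. It was 2.19-fold higher in IWR1 than in NT (1.90 to 2.54) and 2.86-fold higher in Y27 than in NT (2.49 to 3.29). These are well covered genes, whose intervals stay clear of equality. Zfp386, a KRAB zinc finger gene, had 93 reads in IWR1, 113 in Y27 and 37 in NT, a fold of 2.54 (1.72 to 3.82) in IWR1 and of 3.09 (2.12 to 4.61) in Y27. Zfp2 had 70, 82 and 32 reads in IWR1, Y27 and NT, with folds over NT of 2.21 (1.43 to 3.47) and 2.60 (1.71 to 4.04). Zfp383 had 65, 72 and 29 reads in IWR1, Y27 and NT, with folds over NT of 2.26 (1.44 to 3.64) and 2.51 (1.61 to 4.02). In all 5 the Y27 library held more reads than the IWR1 library. Zfp846, with 47 reads in IWR1, 34 in Y27 and 20 in NT, was the sixth member past 2-fold in IWR1, at 2.37-fold over NT (1.38 to 4.23), and lies at the count limit of the rule.

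The other 14 members past 2-fold over NT in Y27 were under 2-fold in IWR1 on the scale with a pseudocount. That split by itself puts their IWR1 values below Y27. In 13 of the 14 the IWR1 value was also above NT, a library that both comparisons share. Zfp160, a KRAB zinc finger gene, had the highest difference, with 62 reads in IWR1, 154 in Y27 and 45 in NT. It was 3.47-fold higher in Y27 than in NT (2.47 to 4.95), and its IWR1 fold of 1.39 (0.933 to 2.09) includes equality. Zfp62 had 175 reads in IWR1, 254 in Y27 and 89 in NT, 1.99-fold above NT in IWR1 (1.53 to 2.59) and 2.89-fold in Y27 (2.26 to 3.72). Both libraries were thus above NT for Zfp62, with Y27 the higher. Zfp292, a large protein with roles in growth hormone gene expression described in rat, had 363 reads in IWR1, 547 in Y27 and 217 in NT, 2.55-fold above NT in Y27 (2.18 to 3.002). Zfp644, a partner of the histone methyltransferases Ehmt1 and Ehmt2, had 356 reads in IWR1, 439 in Y27 and 182 in NT, 2.44-fold above NT in Y27 (2.05 to 2.92). Zfp597 had 60 reads in IWR1, 108 in Y27 and 40 in NT, 2.73-fold above NT in Y27 (1.89 to 4.04). The exception was Zfp677, a KRAB zinc finger gene with 36 reads in IWR1, 112 in Y27 and 45 in NT, whose IWR1 level was below NT.

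Zfp703 was the only member at least 2-fold lower in IWR1 than in NT. It encodes a corepressor of the NET family, lacks classical fingers and is amplified in human breast tumours. It had 136 reads in IWR1, 302 in Y27 and 420 in NT. It was 3.06-fold lower in IWR1 than in NT (2.51 to 3.74), 1.37-fold lower in Y27 than in NT (1.18 to 1.60) and 2.23-fold lower in IWR1 than in Y27 (1.81 to 2.75). The 3 libraries thus stood apart by more than counting error, with IWR1 lowest. Also among the 6 lowest in IWR1 over NT were Zfp688, with 33 reads in IWR1, 54 in Y27 and 61 in NT, Zfp414, with 88, 115 and 134, and Zfp319, with 100, 134 and 147, beside Zfp418 and Zfp821. Zfp688 was 1.83-fold lower in IWR1 than in NT (1.18 to 2.89) and 1.12-fold lower in Y27 than in NT (0.761 to 1.64).

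Zfp418 was the only member at least 2-fold lower in Y27 than in NT. It had 24 reads in IWR1, 14 in Y27 and 38 in NT, and was 2.68-fold lower in Y27 than in NT (1.42 to 5.35). Zfp36 (tristetraprolin), a CCCH protein that promotes decay of mRNAs with AU-rich elements, had 44 reads in IWR1, 38 in Y27 and 64 in NT, 1.66-fold lower in Y27 than in NT (1.10 to 2.55). Zfp821 had 88 reads in IWR1, 85 in Y27 and 131 in NT, and was low to a like extent in both treated libraries, 1.47-fold (1.12 to 1.95) and 1.52-fold (1.15 to 2.02). Zfp628 had 110, 100 and 143 reads in IWR1, Y27 and NT. All of these have under 150 reads in each library, and their intervals are correspondingly wide.

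**Figure D1:**
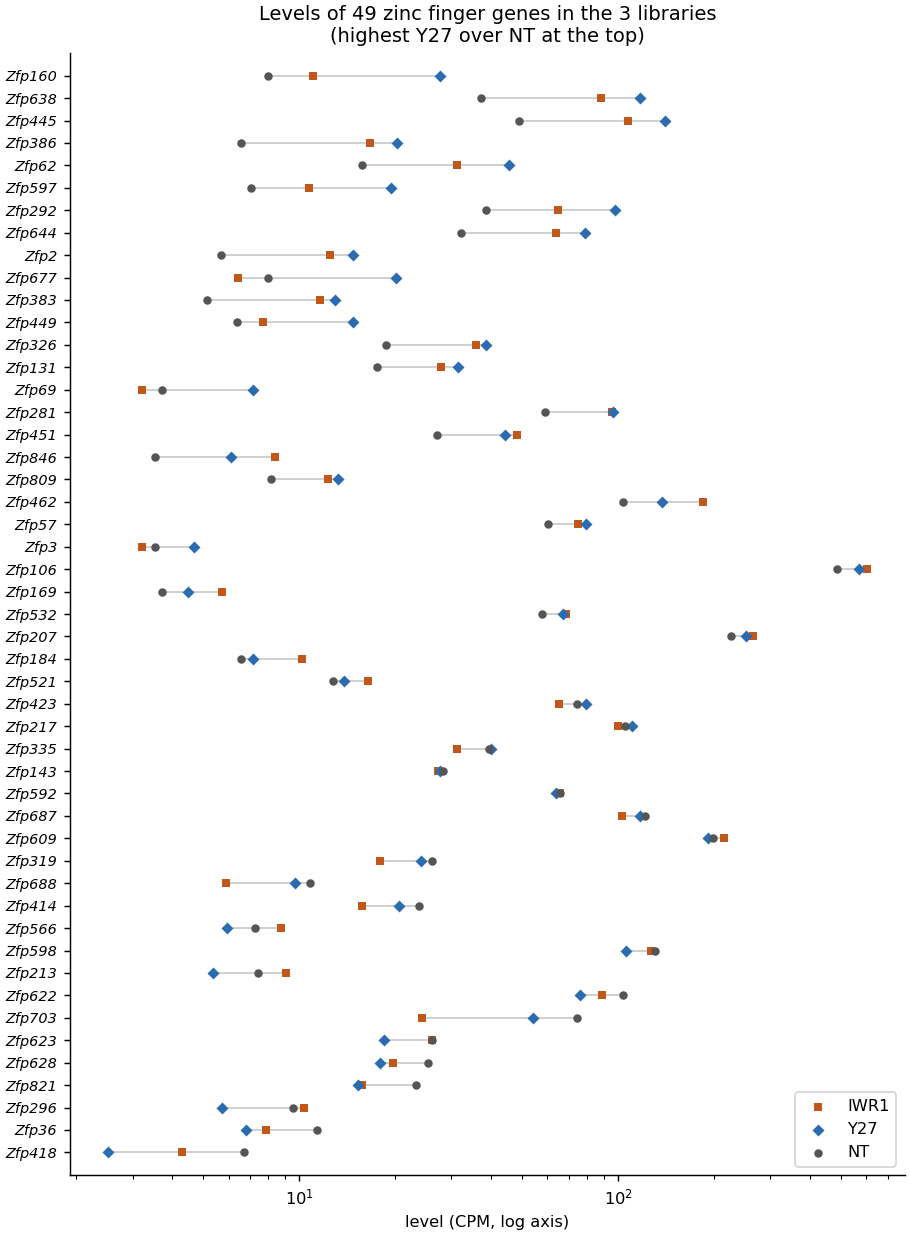
Levels of the 49 named members in CPM (log axis), 1 point per library, with orange squares for IWR1, blue diamonds for Y27 and grey circles for NT, ordered by the log2 difference of Y27 over NT with the highest at the top. Zfp638 and Zfp445 stand to the right of NT in both treated libraries, Zfp160 and Zfp677 stand apart in Y27, and Zfp703 is lowest in IWR1.

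The treated libraries were also set against each other without NT. The 3 members at least 2-fold lower in IWR1 than in Y27 were Zfp677, Zfp160 and Zfp703. Zfp677 was 3.12-fold lower in IWR1 than in Y27 (2.13 to 4.68) and Zfp160 2.49-fold lower (1.84 to 3.40). Zfp69, with 18 reads in IWR1, 40 in Y27 and 21 in NT, was 2.23-fold lower (1.25 to 4.13) and fell short of the 2-fold limit on the scale with a pseudocount. Zfp449, on the X chromosome, had 43 reads in IWR1, 82 in Y27 and 36 in NT, 1.91-fold lower in IWR1 than in Y27 (1.31 to 2.83). In the other direction stood Zfp296, a cofactor in reprogramming to pluripotency in mice, with 58 reads in IWR1, 32 in Y27 and 54 in NT. It was 1.81-fold higher in IWR1 than in Y27 (1.15 to 2.88). Zfp213, with 51 reads in IWR1, 30 in Y27 and 42 in NT, was 1.69-fold higher (1.06 to 2.76). Zfp184 had 57 reads in IWR1, 40 in Y27 and 37 in NT, and Zfp566 had 49, 33 and 41. Both were higher in IWR1 than in Y27 with intervals that include equality. Zfp623 had 146 reads in IWR1, 103 in Y27 and 147 in NT, 1.41-fold higher in IWR1 than in Y27 (1.09 to 1.84). Zfp462, a large nuclear protein tied to heterochromatin in embryonic stem cells, had 1035 reads in IWR1, 764 in Y27 and 585 in NT. Its excess of 1.35-fold in IWR1 over Y27 (1.23 to 1.48) rested on many more reads than those of Zfp296 or Zfp213.

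Of 34 Zfp genes of known role listed by hand, 27 were members, 6 had fractional counts and 1 was under the NT limit. The 27 had median log2 differences of 0.25 in IWR1 over NT, 0.16 in Y27 over NT and -0.02 in IWR1 over Y27, with 18 of 27 above 0 in each comparison with NT. That is 66.7%, near the 61.0% and 66.9% of all members in these 2 comparisons. Zfp57, which, like Zfp445, protects imprinted DNA methylation, had 418 reads in IWR1, 442 in Y27 and 340 in NT, 1.24-fold (1.07 to 1.44) and 1.32-fold (1.14 to 1.52) above NT. Zfp809, which in mouse cells recruits Trim28 to the primer binding site of retroviruses, had 69, 74 and 46 reads in IWR1, Y27 and NT, 1.51-fold (1.03 to 2.25) and 1.63-fold (1.11 to 2.41) above NT. Zfp281, a factor of the transition to primed pluripotency, had 537 reads in IWR1, 536 in Y27 and 334 in NT, 1.62-fold (1.41 to 1.87) and 1.63-fold (1.42 to 1.87) above NT. Zfp462 was 1.79-fold (1.61 to 1.98) and 1.32-fold (1.19 to 1.48) above NT. Zfp281 was thus at the same level in both treated libraries, while Zfp462 was not.

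Zfp451, a SUMO ligase, had 269 reads in IWR1, 246 in Y27 and 153 in NT. Zfp326, part of a complex that couples transcription to splicing in human cells, had 200, 215 and 106, and Zfp131, a BTB zinc finger protein, had 156, 176 and 99. These 3 were between 1.59-fold and 2.05-fold above NT in both treated libraries. Zfp592, Zfp687 and Zfp532, which bind the chromatin reader Zmynd8 in human cells, stayed within 1.2-fold of NT. Zfp592 had 368 reads in IWR1, 356 in Y27 and 370 in NT, Zfp687 had 575, 654 and 684, and Zfp532 had 385, 374 and 327. Zfp598, a ubiquitin ligase of collided ribosomes, had 708 reads in IWR1, 590 in Y27 and 737 in NT, and Zfp622, a factor of the large ribosomal subunit, had 497, 424 and 585. Both were lower in Y27 than in NT, 1.23-fold for Zfp598 (1.11 to 1.38) and 1.36-fold for Zfp622 (1.20 to 1.55). Zfp143, an activator of small nuclear RNA genes, had 152, 154 and 159 reads in IWR1, Y27 and NT, and its interval in IWR1 over NT ran from 1.30-fold lower to 1.21-fold higher. Zfp609, a partner of the cohesin loader Nipbl and of Integrator, had 1202, 1068 and 1121 reads. Zfp217, a corepressor subunit, had 561, 617 and 594 reads in IWR1, Y27 and NT. Zfp335, needed for neural progenitors, had 175, 223 and 223, with IWR1 1.26-fold below NT (1.03 to 1.55). Zfp423 and Zfp521, a related pair that binds Ebf factors, had 365, 442 and 419 reads and 92, 77 and 72 reads in IWR1, Y27 and NT.

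The members' differences from NT followed the GC content of the transcript, which ran from 34.4% to 68.7% over the members, with a median of 49.8%, against 50.5% over the genes compared. Across the 136 members, the Spearman correlation of GC content with the log2 difference was -0.61 in IWR1 over NT, -0.70 in Y27 over NT and 0.31 in IWR1 over Y27, and the same value over 12825 genes compared was -0.43, -0.51 and 0.21. These points share their libraries. Transcript length, from 1033 to 10514 bases, had a Spearman correlation of 0.25, 0.31 and -0.19. With the coding sequence alone the Spearman correlation of GC content with the comparisons to NT was -0.57 and -0.66, and with the 3′ untranslated region of the 131 members where it was at least 100 bases long, -0.50 and -0.60.

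**Figure D2:**
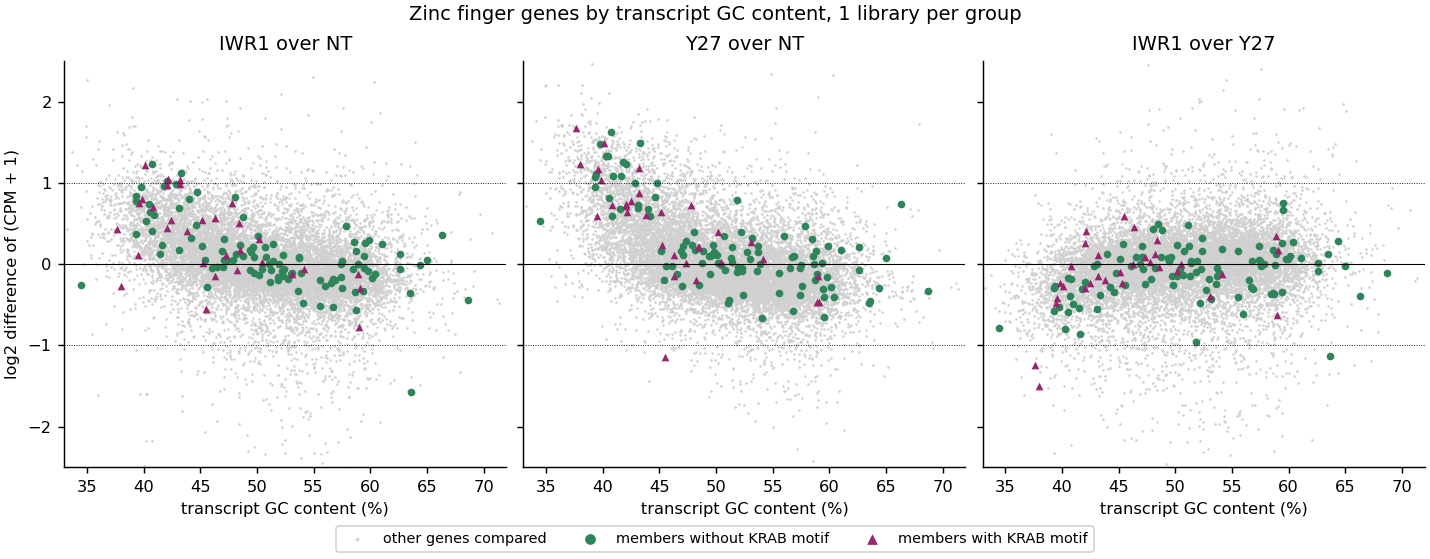
Log2 difference of (CPM + 1) against transcript GC content in percent, in the 3 comparisons, with members that match the KRAB motif as purple triangles, other members as green circles and other genes compared in grey. Points beyond 2.5 on the log2 scale or outside 33% to 72% GC are not drawn, and dotted lines mark 2-fold. Members under about 45% GC lie mostly above 0 in both comparisons with NT, along with the grey genes of the same GC content.

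All 6 members at least 2-fold above NT in IWR1 and all 19 in Y27 were among the 45 members with the lowest GC content (34.4% to 46.3%). The 19 had between 37.6% and 44.8% GC, a span whose upper limit takes in 37 members. The 45 members had median log2 differences of 0.54 in IWR1 over NT, 0.81 in Y27 over NT and -0.26 in IWR1 over Y27. The 3529 genes compared in the same GC range had medians of 0.30, 0.42 and -0.12, and 16.04% of them were at least 2-fold higher in Y27 than in NT. The 45 members in the middle of the GC range had medians of 0.06 and 0.10 over NT, and the 46 with the highest GC content had -0.11 and -0.06. Genes compared in those 2 ranges had -0.02 and -0.05, and -0.14 and -0.19. In both comparisons with NT the members' medians thus lay above those of the genes in each range, by most at low GC content. The lowest range is not matched inside, since its members had a median GC content of 42.0% against 43.3% for the genes. Their median length was 3671 bases against 3375.

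A smooth trend with transcript length and GC content, fitted to the log2 differences of 12825 genes, held 20.003% of the variance in IWR1 over NT, 38.1% in Y27 over NT and 5.14% in IWR1 over Y27. With it removed, the members' medians were 0.07, 0.12 and -0.02, and 84, 88 and 64 of 136 lay above 0, against 49.8%, 46.1% and 54.9% of the genes. No member was then at least 2-fold higher in any of the 3 comparisons, against 1.31%, 1.54% and 1.41% of the genes. At least 2-fold lower were Zfp703 and Zfp654 in IWR1 over NT (2.04% of the genes), Zfp418 in Y27 over NT (1.17%), and Zfp677 and Zfp703 in IWR1 over Y27 (2.53%). Zfp703 had -1.50 in IWR1 over NT with the trend removed, close to its -1.57 as measured. Zfp654 had -1.19 with the trend removed but -0.25 as measured, with a fold interval that includes equality (0.554 to 1.22). Most of its value is thus the fitted trend, 0.94 at its 34.4% GC, the lowest of the members. The highest in Y27 over NT were then Zfp69, with 0.92, Zfp445, with 0.91, and Zfp383, with 0.86. The Spearman correlation with GC content was -0.17, -0.26 and 0.04 after removal. The 45 members of lowest GC content then had medians of 0.16 and 0.27 over NT, against 0.01 and -0.02 for the genes of their GC range.

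**Figure D3:**
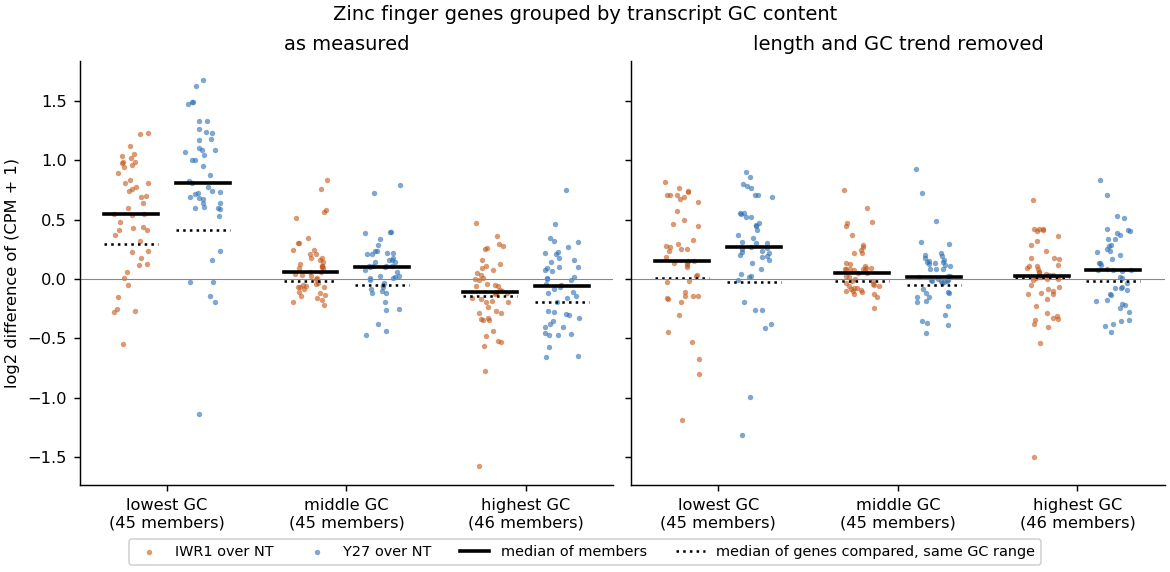
Log2 differences of the members over NT in 3 groups by transcript GC content, as measured (left) and with the length and GC trend removed (right), 1 point per member, orange for IWR1 over NT and blue for Y27 over NT. Thick bars are medians of the members and dotted bars medians of the genes compared in the same GC range, and the group of lowest GC content has medians of 0.16 and 0.27 on the right, against 0.54 and 0.81 on the left.

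The members were chosen by a symbol that stands for zinc finger protein, so finger motifs go with the choice. A C2H2 finger motif was found in 132 of 136 coding sequences, with a median of 9 and up to 34 in Zfp142 and Zfp462, and 63 members had 10 or more. The 4 without one were Zfp36, Zfp185, Zfp330 and Zfp703. The number of motifs had a Spearman correlation of 0.17 with IWR1 over NT and 0.21 with Y27 over NT. A KRAB A-box motif was found in 31 members (22.8%), against 0.991% of the 15635 listed genes with a coding sequence. The motif is strict, and Zfp445, a known KRAB protein, is not among its matches. Members without the motif are thus not all without the domain, and how many KRAB genes it misses was not counted. The medians below compare matches to the motif, not presence of the domain. Members with the motif had medians of 0.41 in IWR1 over NT and 0.59 in Y27 over NT, against 0.06 and 0.10 for members without it, and they had a lower median GC content, 45.3% against 51.3%. Among the 45 members of lowest GC content the order was turned round as measured, with 0.54 and 0.73 for the 18 with the motif and 0.60 and 0.96 for the 27 without, Zfp445 among them. With the trend removed it was mixed, at 0.17 and 0.22 with the motif and 0.13 and 0.30 without. Among the members of higher GC content, the 13 with the motif had 0.02 and 0.06, and the 78 without had -0.03 and 0.01.

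Promoters, from 250 bases before to 50 after the start, were held for 108 members in RefSeq GRCm38.p6. Their median GC content was 58.7%, against 61.3% for 10287 genes compared, and they had a median of 18 CG dinucleotides against 21. The Spearman correlation of promoter GC content with IWR1 over NT was -0.31 over the members and -0.02 over the genes compared.

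Members lay on 18 chromosomes, 36 of them on chromosome 7. These 36 had medians of 0.04 in IWR1 over NT and 0.02 in Y27 over NT, against 0.11 and 0.16 for the other 100. Their median GC content was 52.9%, against 49.1% for the other 100. With the trend removed the medians were 0.05 and 0.11 on chromosome 7, against 0.07 and 0.12. With listed Zfp genes joined into runs where starts followed each other within 500 kb, 16 runs of at least 5 genes held 154 genes, of which 39 were members. Members inside runs had medians of 0.09 and 0.21 over NT and those outside 0.09 and 0.11. The run that begins with Zfp160 on chromosome 17 was singled out after its values were seen. It held 23 genes, 4 of them members, and 18 of the 23 were at least 2-fold higher in Y27 than in NT, against 5.58% of the genes compared and 16.04% of those in the lowest GC range. The run had a lower median GC content, 38.5%, than those genes of the lowest GC range, with 43.3%, so these shares are not matched for GC content. Its median log2 difference in Y27 over NT was 1.35, or 0.53 with the trend removed. The highest genes of the run were then Zfp760, with 1.25 on 33.25 estimated reads in NT, and Zfp52, with 0.92 on 13.61. In IWR1 over NT the median was 0.64, or 0.09 with the trend removed, and in IWR1 over Y27 -0.62, or -0.35. Summed over the run, the estimated counts were 1211 in IWR1, 1912 in Y27 and 771 in NT. Zfp160 and Zfp677, the members most apart between IWR1 and Y27, are neighbours at one end of the run. Its other members, Zfp213 and Zfp13 at the far end, have over 59% GC and were below NT in Y27. The remaining 19 genes have fractional counts, so reads shared between copies enter their values.

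**Figure D4:**
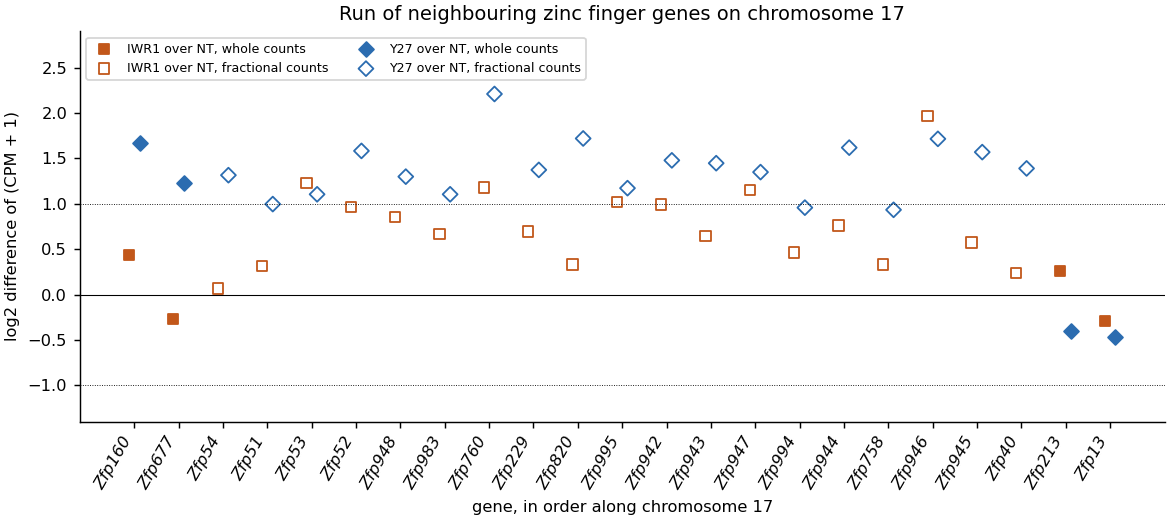
Log2 difference of (CPM + 1) over NT for the 23 genes of the chromosome 17 run in their order along the chromosome, squares for IWR1 and diamonds for Y27, filled for members with whole counts and open for genes with fractional counts. All but Zfp213 and Zfp13 lie above 0 in Y27, and the dotted lines mark 2-fold.

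The promoters of Zfp160 and Zfp677 are shown because these neighbours were both high in Y27. Both are from RefSeq GRCm38.p6, 300 bases each, 5′ to 3′ on the strand of the gene, with each CG dinucleotide in capitals.
Zfp160 promoter, chr17:21008691-21008990 (+): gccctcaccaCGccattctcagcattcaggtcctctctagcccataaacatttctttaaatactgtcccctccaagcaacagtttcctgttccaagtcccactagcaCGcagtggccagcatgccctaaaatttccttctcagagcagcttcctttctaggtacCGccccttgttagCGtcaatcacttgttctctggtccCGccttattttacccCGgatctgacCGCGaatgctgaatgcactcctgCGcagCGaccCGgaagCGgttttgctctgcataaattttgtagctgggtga
Zfp677 promoter, chr17:21383498-21383797 (+): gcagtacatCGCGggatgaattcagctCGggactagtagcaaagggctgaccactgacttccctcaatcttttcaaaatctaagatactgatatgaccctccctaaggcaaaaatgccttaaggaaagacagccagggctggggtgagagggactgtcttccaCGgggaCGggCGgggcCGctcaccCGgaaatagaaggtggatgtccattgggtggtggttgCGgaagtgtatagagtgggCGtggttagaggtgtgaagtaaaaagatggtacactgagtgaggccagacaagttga
The Zfp160 window has 51.3% GC and 12 CG dinucleotides, and the Zfp677 window 52.0% and 10, both under the members' medians of 58.7% and 18.

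Other zinc finger genes were read beside the members. The 125 Zfp genes with at least 20 reads in NT and a fractional count had medians of 0.39 in IWR1 over NT, 0.63 in Y27 over NT and -0.27 in IWR1 over Y27. Of these, 44 (35.2%) were at least 2-fold higher in Y27 than in NT, against 5.58% of the genes compared and 16.04% of those in the members' lowest GC range. They had a median GC content of 43.4%, and 43.2% of them matched the KRAB motif. With the trend removed their medians were 0.09, 0.18 and -0.13. Only 4 of the 125 were then at least 2-fold higher in Y27 than in NT, against 1.54% of the genes. The 24 Zbtb genes under the same count rule had medians of 0.01 and 0.00 over NT at a median GC content of 52.1%. The 9 Zscan and Zkscan genes had 0.26 in IWR1 over NT and -0.11 in Y27 over NT.

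All 28 genes of a list of the KRAB corepressor and of heterochromatin factors were compared. Their medians were 0.16 in IWR1 over NT, 0.18 in Y27 over NT and -0.05 in IWR1 over Y27, with 3, 7 and none at least 2-fold higher, against 2.28%, 5.58% and 1.38% of the genes compared, and none lower. With the trend removed the medians were 0.09, 0.01 and 0.05. Trim28 had 1311 CPM in IWR1, 1367 CPM in Y27 and 1611 CPM in NT, 0.814 times its NT level in IWR1 (0.789 to 0.839). Setdb1 had 164.8 CPM in IWR1, 155 CPM in Y27 and 148 CPM in NT. Trim28, at 59.6% GC, was thus below NT in both treated libraries. Its log2 differences from NT were -0.30 in IWR1 and -0.24 in Y27, or -0.16 and -0.07 with the trend removed. Setdb1 was close to NT, at 1.11-fold in IWR1 (1.01 to 1.22) and 1.05-fold in Y27 (0.952 to 1.15). Among the list's largest differences, Hells, a remodeller of heterochromatin, had 139.7 CPM in IWR1, 164 CPM in Y27 and 64.9 CPM in NT at 37.7% GC. Atrx, which deposits histone H3.3 in heterochromatin with Daxx, had 158 CPM in IWR1, 272 CPM in Y27 and 74.5 CPM in NT at 39.5% GC. Resf1, a Setdb1 partner, had 82.6 CPM in IWR1, 90.6 CPM in Y27 and 35.9 CPM in NT at 41.4% GC. Tasor, a HUSH subunit, had 48.5 CPM in IWR1, 62.5 CPM in Y27 and 27.4 CPM in NT at 38.9% GC. These 4 stood above NT in both treated libraries. With the trend removed, the log2 differences in IWR1 and Y27 over NT were 0.54 and 0.45 for Hells and 0.28 and 0.63 for Atrx. They were 0.68 and 0.54 for Resf1, and 0.07 and 0.01 for Tasor, which had 0.80 and 1.16 as measured. Setdb1, Resf1 and Tasor have fractional counts.

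Some values of the whole libraries moved with the members. The nuclear-retained RNAs Malat1, with 628 CPM in IWR1, 857 CPM in Y27 and 264 CPM in NT, and Neat1, with 47.2 CPM in IWR1, 51.8 CPM in Y27 and 21.9 CPM in NT, were above NT in both treated libraries, as were all 4 of a list of such RNAs. The lowest of the 4, Xist, rested on 17.09 reads in IWR1, 12.87 in Y27 and 3.05 in NT. With the trend removed, Xist lay below NT in Y27, at -0.15. The part of these RNAs in the members' values was not tested. All 7 markers of EpiSCs were present and summed to 3098 CPM in IWR1, 3742 CPM in Y27 and 4031 CPM in NT. In each comparison with NT 4 of the 7 were above 0, with a median log2 difference of 0.72 in IWR1 over NT and 0.10 in Y27 over NT. Values ranged on both sides of NT, with Fgf5 at 68.1 CPM in IWR1, 29.9 CPM in Y27 and 20.7 CPM in NT, and T at 364 CPM in IWR1, 1652 CPM in Y27 and 1688 CPM in NT. Of markers of other cells, the 7 for fibroblasts summed to 73.2 CPM in IWR1, 62.0 CPM in Y27 and 120 CPM in NT, the 6 for trophoblast to 113, 295 and 239 CPM, the 6 for extraembryonic endoderm to 16.4, 35.3 and 30.6 CPM and the 4 for blood to 2.86, 1.97 and 4.60 CPM. Eomes held most of the trophoblast sum, with 93.3 CPM in IWR1, 204 CPM in Y27 and 162 CPM in NT. Cdx2 followed in Y27 and NT, with 384 and 273 reads, and had 14 reads in IWR1. Gata3 and Krt7 were at most 4.07 CPM in any library. The trophoblast sum is thus mainly that of Eomes and Cdx2, and whether trophoblast cells were present was not tested. Elf5, Sox17, Afp, Ptprc, Hbb-bh1 and Cd34 were not listed in the tables used here, and Postn in IWR1, Gata4 in IWR1 and Sox7 in NT were at 0.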

How the data were processed

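The data were gene tables of 3 RNA-seq libraries, grouped by their labels. Per the file headers, a table holds, for each Entrez gene, its transcript length, its expected count and its FPKM. The authors deposited expected counts, which estimate the reads of a gene with no normalization, and FPKM, which divides them by transcript length and library size. The submitters' processing notes name Bowtie 0.12.2 and mm8, and the software behind the estimates was not given in the sources used here. A gene listed in 1 table and absent from another was taken as 0.

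Counts were scaled with TMM factors from edgeR 4.0.16 (0.998, 1.02 and 0.980 for IWR1, Y27 and NT). The comparison took genes at a mean of 1 CPM or more, all 136 members among them, with a pseudocount of 1 CPM and a 2-fold threshold. Intervals of folds are exact conditional binomial, on expected counts rounded to whole numbers. The trend was a cubic polynomial of GC content and log2 length. Symbols matched 99.7% of the genes, and 99.0% of the genes compared had a GC value. Transcripts and coding sequences are from GENCODE and promoters from RefSeq, both on GRCm38, another build than the notes name, so only the sequences' own coordinates are given. Finger and KRAB motifs were searched in translated coding sequences. Scripts were tested on simulated data. Named genes are the 6 members with the largest difference in each direction of each comparison, members on a list of known roles, the 3 highest and 3 lowest in NT, and, of the corepressor list, Trim28, Setdb1 and the 2 with the largest difference in each comparison. The members and lists were chosen with earlier results of these data known. Python 3.11.15, scipy 1.17.1 and DESeq2 1.42.0 (an alternative scaling) were also used.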

Additional observations from a re-analysis of the deposited data

Results flagged for a closer look

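In 30 members the treated libraries lay on opposite sides of NT, and in 6 of these IWR1 and Y27 were also at least 1.5-fold apart. With 1 library per group, the difference was not tested for any of them. The same counts were not taken over the genes compared, so the 30 and the 6 do not set the members apart from other genes. The log2 difference of IWR1 over Y27 was -1.50 for Zfp677, -0.95 for Zfp69, -0.78 for Zfp654 and -0.62 for Zfp618, each below NT in IWR1 and above NT in Y27. It was 0.67 for Zfp213 and 0.75 for Zfp296, both above NT in IWR1 and below NT in Y27. The counting interval of IWR1 over NT includes equality in all 6 of these members, and that of Y27 over NT does in Zfp618 and Zfp213, so their sides of NT there are within counting error. Zfp654 had 49 reads in IWR1, 88 in Y27 and 60 in NT, and Zfp618 had 36, 58 and 45. Of the 6, Zfp677 and Zfp654 have the lowest GC content, 38.0% and 34.4%.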

How the results depend on the processing

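Each group had 1 library, so counting error is the only error measured, and no left-out replicate could be tried. No paired analysis was possible because each group had 1 library. Of 108 alternative values, 75 kept within 1.5 times a count or within the interval of a median, 33 moved and none turned round. Scaling by library total, DESeq2 size factors or upper quartile, a pseudocount of 0.1 CPM, a mean of at least 20 reads and no level filter moved none of the values.

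With the trend of length and GC content removed, 0 members were at least 2-fold higher in IWR1 over NT or in Y27 over NT, and 2 were lower in IWR1 over NT. With the trend of whole-count genes that are not members removed, the counts were 0 higher and 2 lower in each. With fractional counts included, there were 261 genes, with medians of 0.24 in IWR1 over NT, 0.31 in Y27 over NT and -0.15 in IWR1 over Y27. Of the 261, 10 were higher and 2 lower in IWR1 over NT, 63 higher in Y27 over NT and 8 lower in IWR1 over Y27. With at least 50 reads in NT, 97 members were left. Of these 97, 2 were higher in IWR1 over NT (median 0.0062, against 0.09 at the minimum used). In Y27 over NT 8 were higher and 0 lower (median 0.073), and in IWR1 over Y27 1 was lower. These counts are thus not out of the same number as those of the 136 members. Neither setting changes the genes compared, of which 2.28% were higher and 2.25% lower in IWR1 over NT. In Y27 over NT 5.58% of them were higher and 1.34% lower, and in IWR1 over Y27 2.9% were lower. With a pseudocount of 5 CPM, 2 were higher in IWR1 over NT, and 8 higher and 0 lower in Y27 over NT. At 1.5-fold, 24 were higher and 2 lower in IWR1 over NT, 40 and 3 in Y27 over NT, and 3 and 10 in IWR1 over Y27. With a mean of at least 5 CPM, the genes compared held 185 higher and 183 lower in IWR1 over NT, 96 lower in Y27 over NT, and 91 higher and 224 lower in IWR1 over Y27. The cause of these shifts was not tested, apart from those fixed by the changed threshold or member list.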
